A study of Mus musculus with 6 samples.

Results

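The oxygen sensing and hypoxia-inducible factor (HIF) pathway was followed through 10 genes, taken by their symbols from a table of 52459 genes: Egln1, Egln2, Egln3, Hif1an, Hif1a, Epas1, Arnt, Vhl, Vegfa and Ankrd37. They were measured by RNA-seq in megakaryocytic-erythroid progenitors (MEPs), marrow cells upstream of both the megakaryocyte and the red cell lineage, from wild-type (WT) mice and from mice with both copies of Tmprss6 lost (Tmprss6-/-, KO). Tmprss6 is a liver protease that restrains the iron hormone hepcidin, and its loss leaves the body short of iron. There were 3 WT and 3 KO libraries, each from the sorted cells of 3 mice pooled. The genotype is given for the whole mouse, with no tissue-specific promoter or Cre named, and the series title describes it as a condition of iron deficiency. Age, sex, strain and any treatment were not given in the labels.

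HIF is a pair of proteins, an oxygen-labile alpha subunit (Hif1a or Epas1) and a stable beta subunit (Arnt). When oxygen and iron are at hand, prolyl hydroxylases (Egln1, Egln2, Egln3) mark the alpha subunit, the Vhl ubiquitin ligase binds the mark, and the protein is destroyed. The asparaginyl hydroxylase Hif1an blocks what is left from recruiting coactivators. All of these hydroxylases hold iron in their active site, and the iron regulatory protein encoded by Aco1 binds the Epas1 messenger, which ties the pathway to iron supply. In the kidney HIF drives erythropoietin, the hormone of red cell production, and in most cells it induces glycolysis genes, Vegfa, Ankrd37 and its own regulators Egln1 and Egln3. Transcript counts do not show HIF protein or hydroxylase activity.

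The libraries held between 13402209 and 22986837 counts, and 3 counts, the lowest level treated as measurable, stood for 0.138 to 0.220 CPM, the count as a share of all counts in its library after scaling. Tmprss6 itself gave 5, 4 and 0 counts in the WT and 0, 5 and 0 counts in the KO libraries and checked no label. MEP genes were present in every library, with Gata1 at 381 to 610 CPM, Klf1 at 468 to 693 CPM and Kit at 316 to 1640 CPM. KO replicate 2 also carried transcripts of other blood cells: the summed level of 15 macrophage genes was 2930 CPM there and 83.2 to 292 CPM elsewhere, and that of 14 eosinophil, basophil and mast cell genes was 8980 CPM and 54.4 to 836 CPM elsewhere. All 15 and all 14 genes, and 12 of 12 neutrophil genes, were highest in that library. Of 13 lymphoid and plasma cell genes 12 were highest there too, and their summed level was 1440 CPM in KO replicate 2, 896 CPM in KO replicate 3 and 277 to 580 CPM elsewhere. KO replicate 3 came close to KO replicate 2 in the immunoglobulin chain genes, with Ighm at 562 CPM and Jchain at 124 CPM against 21.3 to 126 CPM and 0.231 to 27.6 CPM in WT. Late erythroblast genes, 13 in the table, summed to 356 to 515 CPM in WT and to 562, 5650 and 581 CPM in KO replicates 1 to 3. In these pooled cells, fewer cells of a type and less RNA per cell cannot be told apart.

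The promoters of the 3 prolyl hydroxylase genes and of Ankrd37 are shown because Egln1 was the member that differed most between the genotypes, Egln2 and Egln3 are its paralogs, and Ankrd37 is a gene that HIF induces. Each window runs from 250 bases before to 50 bases after a RefSeq start on GRCm38.p6, 5′ to 3′ along the gene. Capitals mark ACGTG, a form of the core of the element that HIF binds, on either strand. The form GCGTG, present in some of these windows, was neither marked nor counted. RefSeq windows matched 9 of the 10 members.
Egln1, chr8:124949205-124949504, minus strand: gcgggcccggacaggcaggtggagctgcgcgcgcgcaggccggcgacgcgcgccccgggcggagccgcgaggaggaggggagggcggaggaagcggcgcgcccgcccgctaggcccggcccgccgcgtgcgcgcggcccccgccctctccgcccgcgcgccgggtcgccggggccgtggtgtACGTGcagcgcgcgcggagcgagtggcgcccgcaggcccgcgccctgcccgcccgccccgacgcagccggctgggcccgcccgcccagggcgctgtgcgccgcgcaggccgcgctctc
Egln2, chr7:27166753-27167052, minus strand: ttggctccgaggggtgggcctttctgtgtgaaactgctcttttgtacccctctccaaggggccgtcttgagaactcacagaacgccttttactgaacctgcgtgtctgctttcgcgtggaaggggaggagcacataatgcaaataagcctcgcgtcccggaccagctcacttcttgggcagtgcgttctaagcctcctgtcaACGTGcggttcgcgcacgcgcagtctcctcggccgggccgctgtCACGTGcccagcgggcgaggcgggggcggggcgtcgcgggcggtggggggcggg
Egln3, chr12:54203825-54204124, minus strand: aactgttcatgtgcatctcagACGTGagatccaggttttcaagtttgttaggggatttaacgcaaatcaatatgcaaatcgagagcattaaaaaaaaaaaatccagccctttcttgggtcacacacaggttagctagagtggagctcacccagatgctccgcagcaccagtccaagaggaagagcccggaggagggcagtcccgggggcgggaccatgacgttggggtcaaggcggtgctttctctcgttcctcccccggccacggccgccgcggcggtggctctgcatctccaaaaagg
Ankrd37, chr8:45999801-46000100, minus strand: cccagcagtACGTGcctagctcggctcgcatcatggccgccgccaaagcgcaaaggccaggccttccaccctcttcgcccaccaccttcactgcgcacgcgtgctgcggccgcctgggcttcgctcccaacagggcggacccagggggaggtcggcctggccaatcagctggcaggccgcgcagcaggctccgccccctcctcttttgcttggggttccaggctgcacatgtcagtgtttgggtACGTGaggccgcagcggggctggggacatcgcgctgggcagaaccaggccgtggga

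The Egln1 window held ACGTG once, starting 68 bases before the annotated start. In Egln2 it began 48 and 3 bases before the start, the latter as part of CACGTG, which reads the same on both strands. Egln3 had it 229 bases before the start, and Ankrd37 had it 241 and 6 bases before. Of the 9 members with a window, 6 had ACGTG in at least 1 window (66.7%), the others being Hif1a and Vegfa. For Vegfa the match lay only in the window of a RefSeq start inside the gene (chr17:46025114-46025413). The window at its upstream start (chr17:46032328-46032627) had none. A gene with several windows was counted if any of them matched, in this share and in those that follow. Among all 27025 genes with windows the share was 21.8%, and among 43 other HIF target genes with windows it was 55.8%. The Egln1 window was 86% G and C and that of Egln3 54.7%. These matches describe letters in a short window and say nothing on binding in these cells.

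The table held a row for each member. Of the 10, 9 passed the filter on low counts and Epas1 did not. No member passed edgeR's genome-wide test: 0 of the 9 tested members had an adjusted p under 0.05, where 0% of all 13453 tested genes did. At an unadjusted p under 0.05 there was 1 member, Egln1, where 1.74% of all tested genes were. DESeq2 and limma voom called 0 members as well, where they called 0.045% and 0% of the genes given an adjusted p. In Egln1 alone the KO libraries lay above all WT libraries, 1 of 9 members, where 2.27% of all tested genes had KO above WT in this way and 4.03% did not overlap in either direction.

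**Figure D1:**
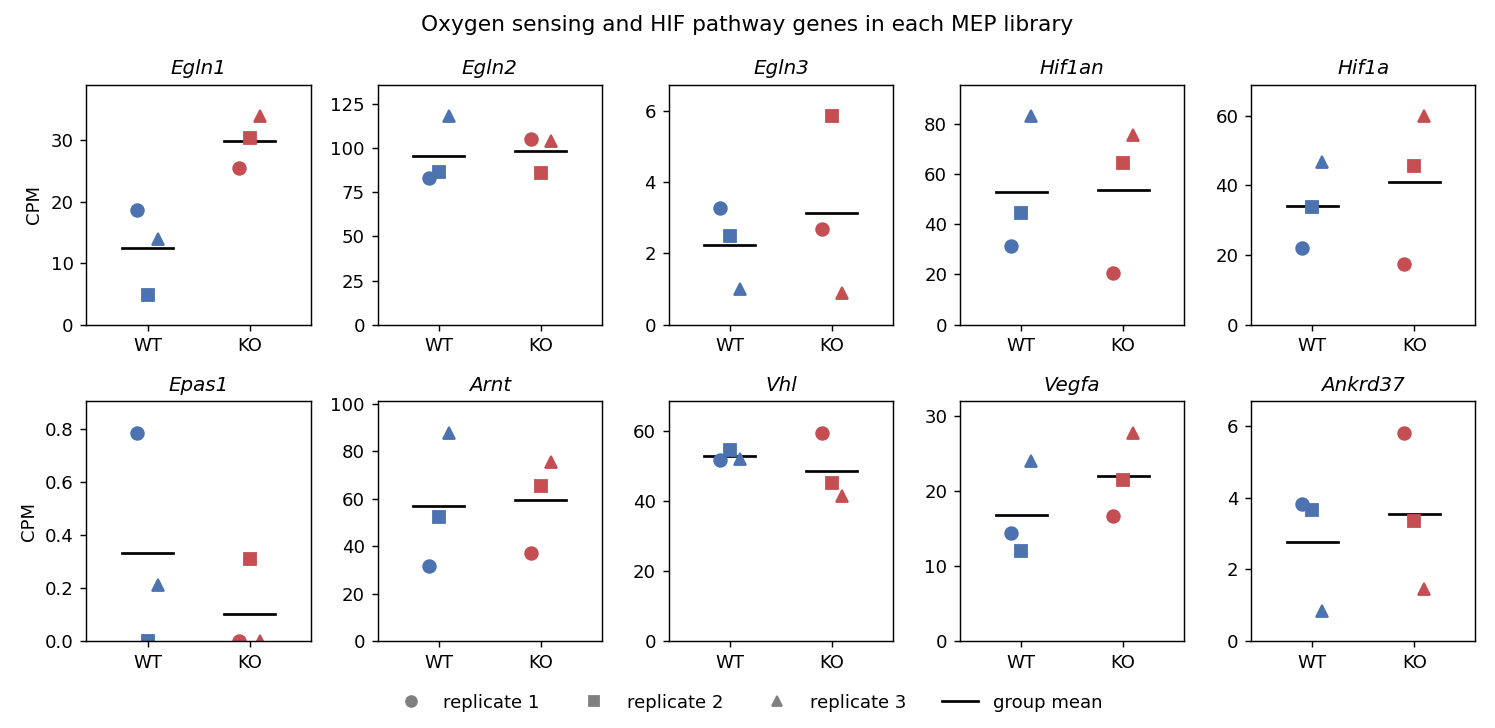
CPM (vertical axis, from 0, a scale of its own in each panel) of the 10 members in 3 WT (blue) and 3 KO (red) libraries, with the replicate number as the symbol and the group mean as a line. Egln1 is at 4.89 to 18.6 CPM in WT and 25.4 to 33.9 CPM in KO, and the groups of the other members overlap.

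Levels were compared between genes only as CPM per kb of the longest annotated transcript. Egln2 had the highest such level, 45.5 ± 9.23 CPM per kb in WT (SD, n = 3), and its lowest library (39.4) stood above every library of every other member. Vhl followed at 18.9 ± 0.545 CPM per kb in WT, and Arnt at 13.2 ± 6.56, with libraries from 7.29 to 20.3 that spanned those of Vhl and overlapped those of Hif1an and Hif1a. Within each single library of either genotype, Arnt was above Hif1an and Hif1a. Hif1an (8.54 ± 4.33) and Hif1a (7.25 ± 2.63) could not be put in order beyond their spread. The same held for Vegfa (4.88 ± 1.86), Egln1 (3.48 ± 1.95) and Ankrd37 (3.00 ± 1.80), again per kb in WT. Egln3 was at 0.845 ± 0.434 CPM per kb, with its highest library (1.23) above the lowest of Ankrd37 (0.921), and Epas1 was at 0.0603 ± 0.0735. Within each single library of either genotype, Egln3 was below Ankrd37. In KO, Egln1 at 8.32 ± 1.18 CPM per kb stood beside Hif1a (8.68 ± 4.59) and Hif1an (8.64 ± 4.69). Egln2 again stood above all other members there, while the libraries of Vhl and Arnt overlapped, as did those of Vegfa (4.84 to 8.05) and Ankrd37 (1.58 to 6.27).

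**Figure D2:**
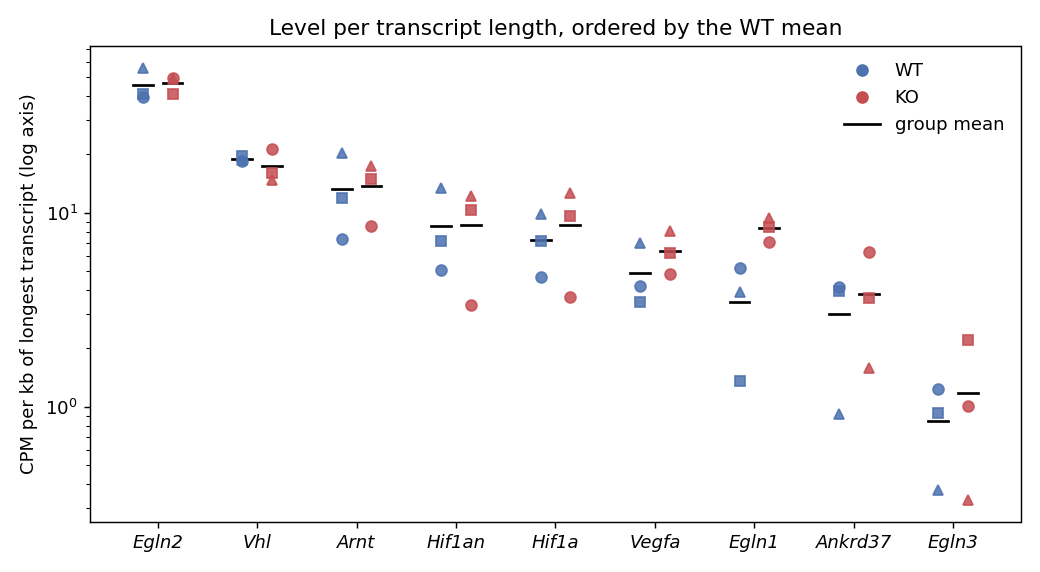
CPM per kb of the longest transcript (log axis) for 9 members, ordered by the WT mean, in WT (blue) and KO (red) libraries, with circles, squares and triangles for replicates 1, 2 and 3 and lines for group means. Egln2 is highest at 39.4 to 56.1, Egln3 has the lowest means at 0.331 to 2.20, and Epas1, at 0 in 3 libraries, is left out.

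Egln1 (ENSMUSG00000031987, chromosome 8, 124908587 to 124949324) encodes PHD2, the prolyl hydroxylase that sets HIF levels in most cells under normal oxygen. It stood at 18.6, 4.89 and 14.0 CPM in WT replicates 1 to 3 and at 25.4, 30.4 and 33.9 CPM in KO replicates 1 to 3. All KO libraries were higher than all WT libraries, and WT replicate 2, with 71 counts, was far below the rest. The WT mean was 12.5 ± 6.99 CPM and the KO mean 29.9 ± 4.24 CPM (SD, n = 3 each), 2.39-fold apart. The log2 fold change was 1.25 with a standard error (SE) of 0.48 and a 95% interval of 0.14 to 2.37. The unadjusted p of edgeR's test was 0.032, rank 118 of 13453 genes, and the adjusted p was 1.00, so that the difference did not pass the genome-wide test. Without WT replicate 2 the log2 fold change was 0.88 (edgeR unadjusted p = 0.061), and without KO replicate 2 it was 1.24.

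The Egln1 difference within libraries of the same replicate number was 0.45, 2.61 and 1.27 log2 units for the numbers 1, 2 and 3. It was above 0 in 3 of 3 pairs, as in 11.6% of all tested genes. For Egln1 this follows from every KO library lying above every WT library and is not a further result. When only the pairs 1 and 3 were compared, with the replicate number in the fit, the log2 fold change was 0.85 (SE 0.23, edgeR adjusted p = 0.10). In that comparison 0 of the 9 tested members passed, where 0.862% of 13572 genes did. The late erythroblast genes also had every KO library above every WT library in summed level: 12 of the 13 tested had log2 fold changes above 0, and Alas2, the first enzyme of erythroid heme synthesis, had at most 5.65 CPM in WT and at least 13.5 CPM in KO. Their part in the Egln1 difference was not tested, and neither was that of the immunoglobulin transcripts of KO replicate 3.

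Egln2 (ENSMUSG00000058709, chromosome 7, 27158658 to 27166802) encodes PHD1, a mostly nuclear prolyl hydroxylase. It was at 82.9, 86.3 and 118 CPM in the WT and 105, 86.1 and 104 CPM in the KO libraries, and the groups overlapped throughout. Its log2 fold change was 0.034 (SE 0.26), with a 95% interval of -0.57 to 0.64 that leaves room for differences of either sign. Egln3 (ENSMUSG00000035105, chromosome 12, 54178981 to 54203860) encodes PHD3, an enzyme that hypoxia induces strongly in many tissues. It was low, at 3.27, 2.48 and 0.996 CPM in WT and 2.69, 5.85 and 0.882 CPM in KO, with 12 to 94 counts per library. KO replicate 2 was the highest library and replicate 3 the lowest of each genotype. The Egln3 log2 fold change of 0.48 (95% interval -1.29 to 2.24) became -0.33 without KO replicate 2, the library with transcripts of macrophages and granulocytes, whose part in the Egln3 level was not tested.

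Per length, Egln1 made up 11.3%, 3.15% and 6.46% of the summed transcripts of the 3 prolyl hydroxylases in the WT libraries and 12.3%, 16.4% and 16.0% in the KO libraries. The lowest KO library lay just above the highest WT library. In WT 91.2% ± 4.60 was Egln2 (SD, n = 3) and in KO 82.9% ± 3.36 (n = 3), while Egln3 made up at most 4.26% in any library. The sums thus consisted mainly of Egln2 in both genotypes.

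Hif1an (ENSMUSG00000036450, chromosome 19, 44562850 to 44576274) encodes FIH, the asparaginyl hydroxylase that stops HIF from binding its coactivators. It was at 31.4, 44.3 and 83.0 CPM in WT and 20.7, 64.2 and 75.7 CPM in KO, and the spread within each genotype exceeded the difference between them. The log2 fold change was 0.017 (95% interval -1.24 to 1.27). In the pairs 1 and 3 it was -0.36 (SE 0.15, edgeR adjusted p = 0.30), a value that did not pass either. Vhl (ENSMUSG00000033933, chromosome 6, 113623959 to 113631633), the substrate receptor of the HIF ubiquitin ligase, was the steadiest member in WT, at 51.9, 54.6 and 52.2 CPM. In KO it was at 59.6, 45.1 and 41.4 CPM, with libraries on both sides of the WT values. Its log2 fold change was -0.12 (95% interval -0.72 to 0.49).

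Hif1a (ENSMUSG00000021109, chromosome 12, 73901375 to 73947530) encodes the alpha subunit found in nearly all cells. It was at 22.0, 33.9 and 46.8 CPM in WT and 17.4, 45.6 and 59.9 CPM in KO, groups that overlapped widely (log2 fold change 0.26, 95% interval -0.87 to 1.39). Epas1 (ENSMUSG00000024140, chromosome 17, 86753907 to 86833410) encodes HIF-2 alpha, the subunit that controls erythropoietin in the kidney and is abundant in endothelium. It gave 17, 0 and 3 counts in the WT and 0, 5 and 0 counts in the KO libraries, or at most 0.784 CPM. A count of 0 allows up to 3 counts, 0.183 to 0.220 CPM in those libraries, counting error only. WT replicate 1 (0.784 CPM) and KO replicate 2 (0.311 CPM) stood above the limits of their libraries (0.138 and 0.187 CPM). The remaining libraries had 0 or 3 counts. Epas1 was below the filter on low counts, so that no fold change is given. Of 12 endothelial genes 6 fell below the filter too, with Sox17 at 0 in every library and Cdh5 at 0 to 1.99 CPM. The other 6 were tested, among them Egfl7 at 35.1 to 119 CPM, Pecam1 at 22.3 to 65.7 CPM, Plvap at 19.1 to 54.6 CPM and Tek at 10.5 to 70.2 CPM. Among the 3 alpha subunit genes, Hif1a made up 82.6% to 87.9% of the transcripts per length in the 6 libraries, Hif3a 10.7% to 17.4%, and Epas1 at most 2.64%.

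Arnt (ENSMUSG00000015522, chromosome 3, 95434388 to 95497240), the shared beta subunit, was at 31.5, 52.1 and 87.7 CPM in WT and 37.1, 65.1 and 75.5 CPM in KO. The genotypes covered the same range, with a log2 fold change of 0.053 (95% interval -0.96 to 1.07). The wide intervals of Hif1a, Hif1an and Arnt came with libraries that differed by replicate number in both genotypes: for each of these genes the library numbered 1 was the lowest and the library numbered 3 the highest of its genotype.

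Vegfa (ENSMUSG00000023951, chromosome 17, 46016993 to 46032369) encodes the main growth factor of blood vessels and is a classic HIF target. It was at 14.4, 12.0 and 24.1 CPM in WT and 16.7, 21.5 and 27.8 CPM in KO. The KO library was the higher one in 3 of 3 pairs, but WT replicate 3 exceeded KO replicates 1 and 2. Its log2 fold change was 0.38 (95% interval -0.49 to 1.26; edgeR adjusted p = 1.00), and the pair differences were 0.21, 0.83 and 0.20 log2 units. Ankrd37 (ENSMUSG00000050914, chromosome 8, 45996902 to 46005707), an ankyrin repeat gene that hypoxia induces, was at 3.83, 3.65 and 0.854 CPM in WT and 5.81, 3.36 and 1.47 CPM in KO. Replicate 3 was the lowest library of each genotype, and the groups overlapped (log2 fold change 0.35, 95% interval -1.34 to 2.03). Ankrd37 shares 57 bases with Ufsp2 on the opposite strand, which had 1049 to 1649 counts per library against 12 to 95 for Ankrd37, so that reads without strand could have been assigned to either.

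**Figure D3:**
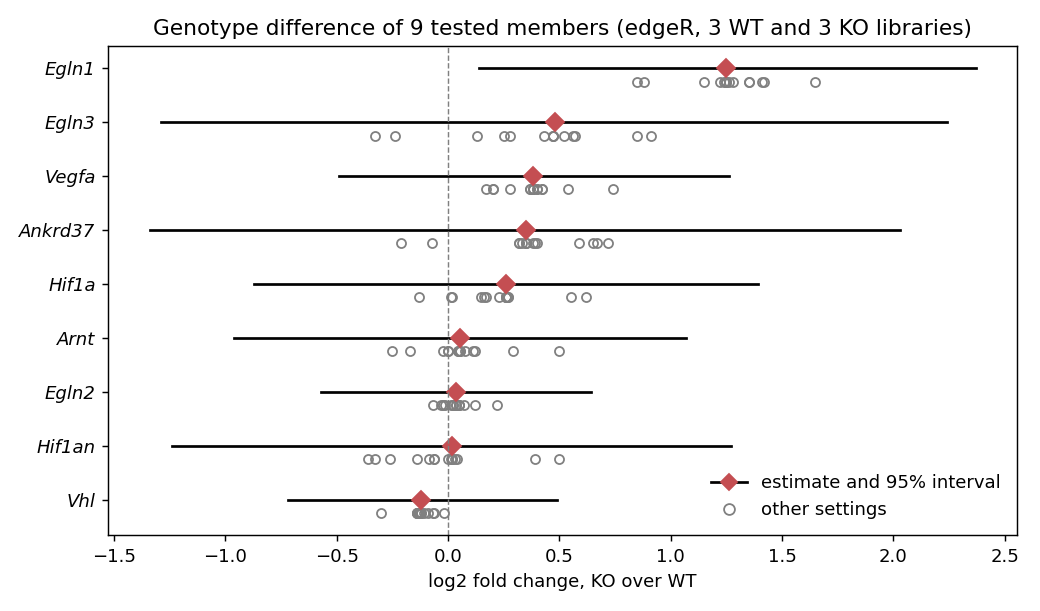
Log2 fold change of KO over WT (horizontal axis) for the 9 tested members, with the edgeR estimate (diamond), its 95% interval (line) and the values under other settings (open circles). The interval of Egln1 runs from 0.14 to 2.37 and those of the other 8 members include 0.

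In most members replicate number took a larger share of the variation than genotype. For each gene the sum of squares of log2 CPM was split into replicate number, genotype and remainder. Replicate number took 94.0% for Arnt, 91.1% for Hif1a, 90.9% for Ankrd37, 89.2% for Hif1an and 84.1% for Egln3, against a median of 74.4% over all tested genes. Egln2 (64.9%), Vegfa (63.4%) and Vhl (37.6%) lay below that median. Egln1 was the one member with more under genotype (59.8%) than under replicate number (17.4%), where the median genotype share of all tested genes was 4.63%. Vegfa had 24.3% and Vhl 15.2% under genotype. Replicate number has more levels than genotype, so that its share tends to be larger even where neither has an effect. The shares were not adjusted for this. With 2 libraries per number these shares are a description.

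The longest tested members, Hif1an (6194 nt), Hif1a (4724 nt) and Arnt (4325 nt), were lowest in the libraries numbered 1. Ankrd37 alone, the shortest at 927 nt, was highest there in both genotypes. The members of middle length did not sort in this way: Egln2 (2107 nt) and Vhl (2792 nt) were lowest in WT replicate 1 and highest in KO replicate 1. Over the whole library, the mean log2 CPM of genes with transcripts of at least 4498 nt (the upper quartile) minus that of genes of at most 1809 nt (the lower quartile) was 0.25, 0.99 and 1.86 in WT and 0.077, 1.55 and 1.59 in KO replicates 1 to 3. The libraries numbered 1 thus had the lowest balance of long over short transcripts in both genotypes. Its part in the members' values was not tested. For Egln1, of 3594 nt, the difference was largest in pair 2 (2.61 log2 units), where the balance was higher in KO. It was 0.45 and 1.27 log2 units in the pairs 1 and 3, where the balance was lower in KO. The part of the balance in the Egln1 difference was not tested either.

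**Figure D4:**
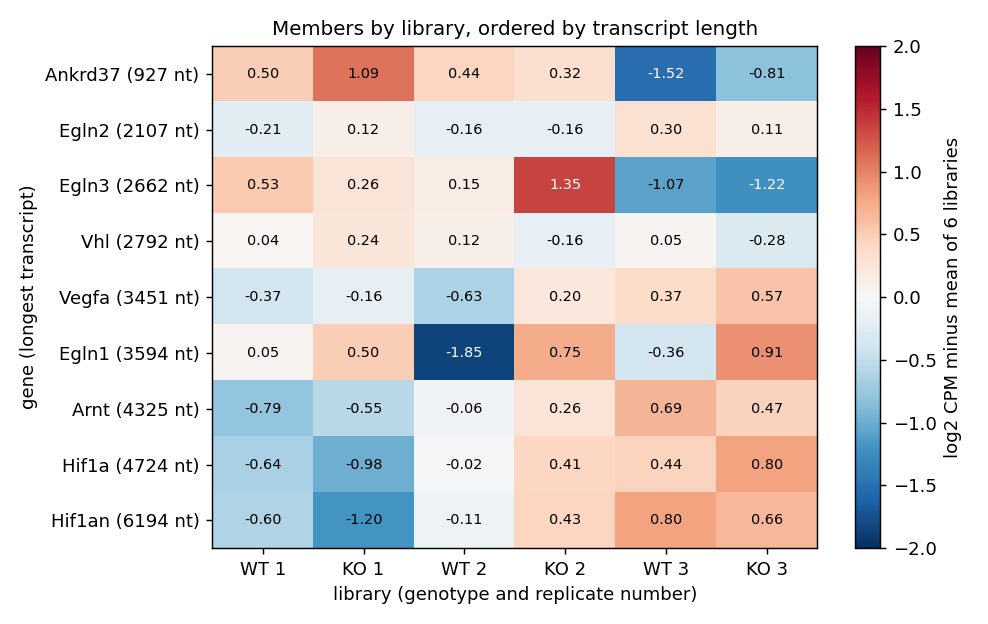
Log2 CPM of each tested member minus its mean over the 6 libraries (colour and printed value), with genes ordered by transcript length and libraries by replicate number. The longest genes are low in WT 1 and KO 1, Ankrd37 is low in WT 3 and KO 3, and Egln1 is higher in KO than in WT for each number.

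The HIF machinery around the members, a list of partners, ligase subunits, coactivators and modifiers, had 30 genes in the table, 29 of them tested. None passed the test, with 0 at an unadjusted p under 0.05 in edgeR, where 1.74% of all tested genes were, and DESeq2 and limma voom called 0. There were 18 with a log2 fold change above 0 and 11 below, with a median of 0.013, against -0.0048 over all tested genes. In 0 of the 29 did the genotypes fail to overlap, where 4.03% of all tested genes did; at either share a count of 0 in a list of this size is near the background. Cited4, a coactivator-binding protein that competes with HIF for its coactivators, had the smallest p, at 13.2, 8.41 and 10.6 CPM in WT and 22.8, 20.3 and 12.9 CPM in KO. Its log2 fold change was 0.79 (edgeR adjusted p = 1.00). Its paralog Cited2, a feedback inhibitor of HIF, had WT libraries from 55.0 to 92.5 CPM and KO libraries from 54.6 to 62.4 CPM. The next genes by p were P4htm, a membrane-bound HIF hydroxylase (-0.46), the chaperone Ptges3 (0.24), the ubiquitin ligase Siah1b (0.23), the acetyltransferase Ep300 (-0.31), the SUMO protease Senp1 (0.15) and the deacetylase Sirt1 (-0.15), all as log2 fold changes that did not pass.

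The most abundant machinery genes per length in WT were the chaperone Hsp90ab1 (786 CPM per kb), the scaffold Rack1 (306), the ligase subunit Elob (288) and the Vhl-binding prefoldin subunit Vbp1 (224). The other subunits of the Vhl ligase, named for their role after their values were seen, were Eloc, Cul2 and Rbx1, with log2 fold changes of 0.022, 0.058 and -0.14. Eloc was at 358, 171 and 112 CPM in WT and 379, 139 and 133 CPM in KO. Like Elob, Cul2 (3828 nt) and Rbx1, it was highest in the libraries numbered 1. Aco1, named in the same way, encodes the iron regulatory protein that binds the Epas1 messenger, and it had 50.6, 77.2 and 142 CPM in WT and 70.5, 76.1 and 151 CPM in KO. Its log2 fold change was 0.14 (95% interval -0.93 to 1.22).

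Among 54 other HIF target genes in the table, 45 passed the filter. Of these 0 passed edgeR's test, and 2, Tfrc and Bhlhe40, had an unadjusted p under 0.05, where 1.74% of all tested genes had. DESeq2 called 1, Tfrc, where it called 6 genes in all (0.045%), and limma voom 0. Log2 fold changes were above 0 in 30 and below 0 in 15, with a median of 0.14, against 6626 above and 6827 below and a median of -0.0048 over all tested genes. Without KO replicate 2 the median of the list was again 0.14. The medians within pairs 1, 2 and 3 were 0.27, 0.22 and 0.039.

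All KO libraries lay above all WT libraries in 4 of the 45 target genes (8.89%), where 2.27% of all tested genes had KO above WT in this way: Tfrc, Slc16a3, Pgam1 and P4ha2. Tfrc, the transferrin receptor, is induced by HIF and, through its messenger, by lack of iron. It was at 100 CPM, 97.0 CPM and 65.5 CPM in WT and 343, 476 and 204 CPM in KO, a log2 fold change of 1.96 (edgeR adjusted p = 1.00). In the added fit of the pairs 1 and 3, which leaves 1 residual degree of freedom, its log2 fold change was 1.70 (edgeR adjusted p = 1.7e-06). Tfrc was the 1 target gene that passed there. The lactate exporter Slc16a3 had 7.56, 8.75 and 6.97 CPM in WT and 12.8, 18.5 and 9.11 CPM in KO. The glycolytic enzyme Pgam1 had 40.8, 35.4 and 26.9 CPM in WT and 57.0, 50.1 and 42.0 CPM in KO. Neither passed, at log2 fold changes of 0.80 and 0.53. P4ha2, a collagen prolyl hydroxylase, stayed at or below 1.68 CPM, with 1 WT library at 0.

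Other target genes of small p were highest in KO replicate 2. The transcription repressor Bhlhe40 was at 16.7 CPM there against 1.10 to 2.57 CPM elsewhere, the heme-degrading enzyme Hmox1 at 211 CPM against 3.56 to 34.9 CPM, and the glycolysis regulator Pfkfb4 at 23.8 CPM against 5.87 to 8.18 CPM. The part of the other blood cells in these levels was not tested. The endothelial receptor Kdr had a log2 fold change of -1.43 at 0.461 to 5.34 CPM. The target genes of highest level per length in WT, Ldha, Mif, Aldoa and Eno1, had log2 fold changes of 0.034, 0.10, 0.22 and 0.36. Epo, the erythropoietin gene, had 0 counts in all 6 libraries, which allows up to 3 counts in each.

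**Figure D5:**
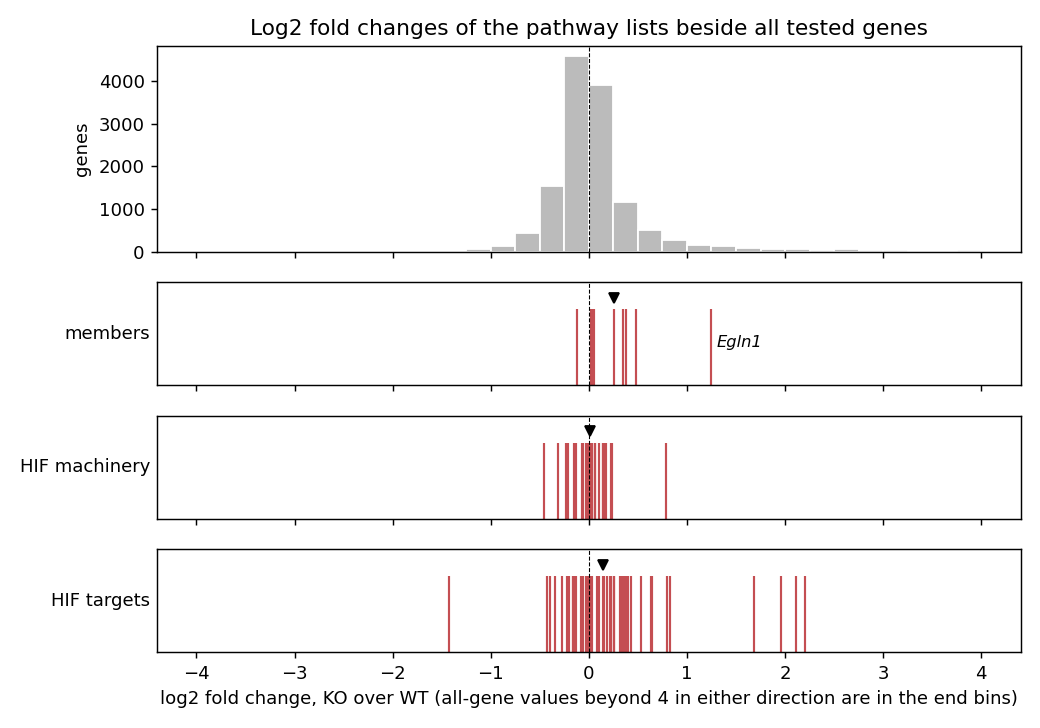
Log2 fold changes of KO over WT for all 13453 tested genes (grey bars, genes per bin) and for single genes (red lines) of the members, the HIF machinery and the HIF target list, with each list's median as a triangle. The medians are 0.26, 0.013 and 0.14, and Egln1 lies apart from the other members at 1.25. Without KO replicate 2 the median of the members is 0.12, and within pairs 1, 2 and 3 it is 0.21, 0.43 and -0.13.

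The genes whose pattern over the 6 libraries was most like that of Egln1 were Cars (Pearson r = 0.976 and Spearman rho = 0.943, log2 CPM), Rap1gap (0.972 and 0.943), Pklr (0.967 and 0.886), Serpinb9b (0.961 and 0.943) and Ifrd2 (0.958 and 0.829). They were picked for this likeness, so that no p is given, and 38 genes (0.282%) had an r above 0.9. Cars, the cysteinyl-tRNA synthetase, was at 67.6, 49.3 and 65.9 CPM in WT and 78.4, 91.2 and 91.2 CPM in KO. Pklr, the pyruvate kinase of liver and red cells, was at 43.5, 34.0 and 44.8 CPM in WT and 51.3, 49.8 and 55.9 CPM in KO. In both genes, as in Egln1, WT replicate 2 was the lowest library and no KO library reached down to the WT range. Neither passed edgeR's test, with log2 fold changes of 0.51 and 0.36 (adjusted p = 1.00 for each). Rap1gap and Serpinb9b were at most at 1.18 CPM.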

How the data were processed

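The deposited table gives counts of reads for each Ensembl gene in each library, as unscaled whole numbers. The tools that the submitters' processing notes list for the authors are FastQC 0.11.5, STAR 2.5.3a and edgeR, beside the builds GRCm38.p3 and GRCh38.p3. Which program counted the reads, whether it used strand and which annotation release it used is not given in the sources used here. The kits named in the labels' protocols, SMART-Seq v4 and Nextera XT, keep no strand.

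With filterByExpr of edgeR 4.0.16 (minimum count 10, minimum total 15), 13453 of 52459 genes were kept, and TMM factors were applied. KO and WT were compared by the quasi-likelihood test of edgeR, two-sided, at a threshold of 0.05 after Benjamini-Hochberg adjustment over every tested gene. The replicate number was not in this fit, so that its SE and intervals also hold the differences between the numbers. SE is the log2 fold change divided by the square root of F, and 95% intervals use the t distribution of that fit. CPM use the TMM-adjusted library sizes, and log2 CPM a prior count of 2. Transcript length is that of the longest GENCODE M21 transcript. The p-values measure the spread between these pools of mice. Alternatives were DESeq2 1.42.0, limma 3.58.1 voom, other scalings and filters and the omission of each library (R 4.3.3).

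Replicate numbers 1, 2 and 3 occur in both genotypes. Deviations of same-numbered libraries from their group means correlated across genes at 0.532, 0.161 and 0.633, each over 0.1, and the numbers were taken as pairs. Differently numbered libraries were not correlated in this way, so that these values have no reference. Log2 CPM correlated between WT and KO at 0.979, 0.918 and 0.969 for the numbers 1, 2 and 3. WT replicate 2 correlated at 0.958 and 0.954 with KO replicates 1 and 3, and KO replicate 2 at 0.904 and 0.898 with WT replicates 1 and 3. The labels do not explain the numbers, so the pairing is read from the data alone, and pair 2 is its least certain part. The comparison limited to the pairs 1 and 3 was added because KO replicate 2 held the most transcripts of other blood cells. KO replicate 3, with its immunoglobulin transcripts, stays in it. The comparison leaves 1 residual degree of freedom, so that its p-values rest mainly on the spread shared across genes. That shared spread counted as 14.5 prior degrees of freedom, against a median of 3.77 in the fit of every library.

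The members and lists were chosen with earlier results of these data known. The rule named all members and, of each list, up to 8 genes of smallest p, 4 of highest WT level and those whose genotypes did not overlap.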

Additional observations from a re-analysis of the deposited data

How the results depend on the processing

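With the replicate number as a block, the log2 fold change of Egln1 was 1.42 (SE 0.43, edgeR unadjusted p = 0.017, adjusted p = 0.995). The SE with the block was 0.17 for Arnt, 0.24 for Hif1an and 0.21 for Hif1a, against 0.44, 0.54 and 0.49 without it. No call of a member changed: 0 members passed under any of the 15 other settings. Over all genes, DESeq2 called 6 and the pairs 1 and 3 with the replicate block called 117, against 0 otherwise. Of the HIF target genes, 1 passed in each of these. No setting called a machinery gene. The log2 fold changes of Egln1 (0.85 to 1.65), Vegfa (0.17 to 0.74) and Vhl (-0.30 to -0.020) kept their direction in 15 of 15 settings, and the adjusted p of Egln1 ranged from 0.10 to 1.00.

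The other members changed direction in some settings, each time without a call, and the cause was not tested. Leaving out single libraries gave ranges of -0.066 to 0.22 for Egln2, -0.33 to 0.91 for Egln3, -0.33 to 0.50 for Hif1an, -0.13 to 0.62 for Hif1a, -0.25 to 0.50 for Arnt and -0.21 to 0.72 for Ankrd37. In the pairs 1 and 3, Egln3 was at -0.24 and Hif1an at -0.36. Hif1an was also at -0.065 with the replicate block, -0.063 with limma voom and -0.00016 with upper quartile factors. Egln3 was not tested under the filter with a minimum count of 50. Counts were fewest for Epas1 (0 to 17 per library), Egln3 (12 to 94) and Ankrd37 (12 to 95), which limits the precision of their values.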
